A study of Mus musculus with 5 samples.

Results

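The genes described here are 10 that blood stem cells share with the endothelium, the lining of blood vessels: Angpt1, Tek, Tie1, Myct1, Egfl7, Esam, Robo4, Procr, Emcn and Cd34. All probe sets annotated to exactly 1 of these symbols were taken, which gave 17 of the 45037 probe sets on the arrays (34945 of them with 1 symbol). They were measured on 5 Affymetrix mouse arrays in 2 marrow progenitor populations of wild-type C57BL/6 mice, 3 arrays of the common dendritic cell progenitor (CDP) and 2 of the common myeloid progenitor (CMP). The CDP, which gives rise to dendritic cells, was sorted as lineage-negative, Sca-1-negative cells with intermediate c-Kit, positive for CD34, Flk2 and CD115 and negative for CD16/32. The CMP, an earlier progenitor of several myeloid lineages, was sorted as lineage-negative, Sca-1-negative cells with high c-Kit that carried CD34 and Flk2 and lacked CD11c, CD16/32 and CD115. Both populations were sorted 2 times, and RNA from 10000 to 30000 cells was amplified over 2 cycles. The age and sex of the mice are not given in the sources used here, and no label says that each array was its own animal. The p-values therefore cover only how far these arrays spread, which may be technical. The question put to the data was which of the shared genes a progenitor committed to dendritic cells still carries, set against the earlier CMP.

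Blood stem cells and endothelium arise from related embryonic precursors and keep a set of surface and secreted proteins in common. Angpt1 encodes angiopoietin-1, a secreted ligand of the receptor tyrosine kinase Tie2 (encoded by Tek), and Tie1 is the related receptor that partners Tie2. In marrow this pathway is known for stem cell quiescence and for the integrity of the sinusoids. Other genes of the set encode an adhesion molecule (Esam), sialomucins (Emcn, Cd34), a Robo-family receptor of vessels (Robo4) and the receptor of protein C (Procr). Egfl7 encodes a secreted Notch modulator and Myct1 a small membrane protein of endothelium and stem cells.

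To show what DNA lies at the starts of these genes, 4 promoters are printed: those of Myct1, Procr and Cd34, whose levels were lower on every CDP array, and that of Tek, which was not detected. They run from 250 bases before to 50 after the annotated start, 5′ to 3′ on the gene's strand, and come from RefSeq (GRCm38.p6), where 8 of the 10 genes matched (all but Angpt1 and Esam). Capitals mark every match to GATAA or its reverse complement TTATC, the core bound by GATA factors, and to GGAAG or its reverse complement CTTCC, a core bound by many ETS factors. No base of these promoters fell in both motifs.
Myct1 (chr10:5593478-5593777, plus strand): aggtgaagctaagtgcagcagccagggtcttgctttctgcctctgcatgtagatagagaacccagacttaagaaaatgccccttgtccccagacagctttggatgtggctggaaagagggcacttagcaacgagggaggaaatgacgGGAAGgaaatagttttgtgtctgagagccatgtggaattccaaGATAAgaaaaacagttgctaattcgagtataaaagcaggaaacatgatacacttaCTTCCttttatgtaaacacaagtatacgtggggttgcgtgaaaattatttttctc
Procr (chr2:155750967-155751266, plus strand): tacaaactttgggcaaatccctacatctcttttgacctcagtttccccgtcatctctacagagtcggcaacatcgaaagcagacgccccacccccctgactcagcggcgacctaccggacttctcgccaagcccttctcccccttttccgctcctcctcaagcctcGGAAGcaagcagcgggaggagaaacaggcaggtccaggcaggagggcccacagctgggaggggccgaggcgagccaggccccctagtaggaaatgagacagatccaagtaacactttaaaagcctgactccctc
Cd34 (chr1:194938571-194938870, plus strand): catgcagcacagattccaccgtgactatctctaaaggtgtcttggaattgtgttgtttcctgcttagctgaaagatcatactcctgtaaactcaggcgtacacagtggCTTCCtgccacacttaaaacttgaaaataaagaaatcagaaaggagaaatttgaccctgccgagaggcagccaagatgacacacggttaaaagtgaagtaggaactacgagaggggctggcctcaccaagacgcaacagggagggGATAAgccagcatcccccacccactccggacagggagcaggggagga
Tek (chr4:94739039-94739338, plus strand): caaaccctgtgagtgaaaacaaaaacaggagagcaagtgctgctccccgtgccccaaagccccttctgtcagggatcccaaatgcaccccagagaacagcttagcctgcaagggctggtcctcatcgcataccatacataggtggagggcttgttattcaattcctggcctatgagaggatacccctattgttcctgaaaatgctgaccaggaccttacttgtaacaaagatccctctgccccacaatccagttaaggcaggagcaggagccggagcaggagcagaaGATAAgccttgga
GATAA was found 1 time in each of the Myct1, Cd34 and Tek windows and 0 times in that of Procr. GGAAG was found 2 times for Myct1, 1 time each for Procr and Cd34, and 0 times for Tek. Of all 32851 promoters of this length in the table, 25.4% hold GATAA and 71.4% hold GGAAG. Thus a GATAA match was present both in a gene that differed between the populations (Myct1) and in one with no detected level (Tek), and a match is a description of these letters only.

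The deposited values are log2 and share a lowest value of 2.26, and log2 5 was used as the detection level. By this level 5 of the 10 genes were detected on at least 1 array (Angpt1, Myct1, Egfl7, Procr and Cd34), and 5 stayed below it on every array and probe set (Tek, Tie1, Esam, Robo4 and Emcn). As a group label, endothelial-like stem genes thus covers 5 genes with no detected level in either population. A probe set was tested where at least 2 arrays reached log2 5, which left 7 of the 17 probe sets and 5 of the 10 genes. Differences are CDP minus CMP, each with its standard error from limma, and adjusted p-values are Benjamini-Hochberg values over all 16552 tested probe sets with a threshold of 0.05. At 1 probe set per gene, 2 genes fell in CDP (Angpt1 and Myct1), 0 rose and 3 did not pass. Of all tested probe sets, 1.73% passed with 0.423% lower and 1.31% higher in CDP. Without CDP 1, 44 probe sets of the table passed, and without any other single array 0 passed (1508 to 2835 at an unadjusted p under 0.05), so no call named here is kept in those fits of 4 arrays other than, at most, the one without CDP 1. The genes were chosen with earlier results of these data known, so their count is a description. Across the tested probe sets the differences had a median of 0.12, which became 0.0039 after quantile normalization, so negative differences below lie about that much further from 0, and positive ones nearer to it, relative to the bulk of the array.

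**Figure D1:**
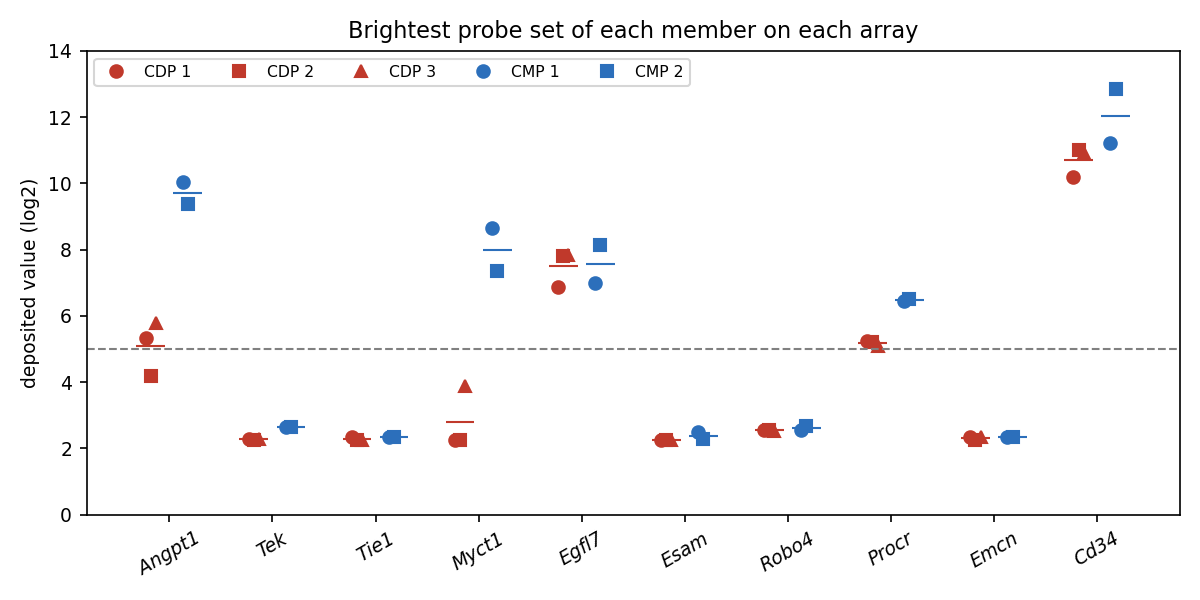
Deposited log2 value of the brightest probe set of each of the 10 genes on each array, CDP in red at the left of each pair and CMP in blue at the right, with a short line at each group's mean and a dashed line at log2 5. Angpt1 and Myct1 are separated by more than 3.4 log2 units between the nearest arrays of the 2 groups, and Tek, Tie1, Esam, Robo4 and Emcn lie below 2.69 throughout.

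On the arrays themselves, 34.0% to 35.8% of probe sets reached log2 5. The 5′ beta-actin control was far lower on CDP 1 and CMP 1 (6.54 and 6.71) than on CDP 2, CDP 3 and CMP 2 (12.97, 10.52 and 12.40). The 3′ beta-actin control lay between 14.06 and 15.10 on all arrays. The 3′ Gapdh control was also lower on CDP 1 and CMP 1 (12.30 and 12.28 against 14.03, 14.01 and 14.19). So was the middle Gapdh control (7.78 and 8.27 against 12.62, 11.77 and 13.18). These 2 arrays are therefore also compared with each other, as are the remaining 3. The 5′ Gapdh control split the arrays differently, at 7.66, 10.16 and 7.40 on the CDP arrays and 7.57 and 10.97 on the CMP arrays, so that CDP 3 was low in it as well. It is given as another block, chosen after seeing the data. Of 8 neutrophil markers, 7 were detected on CDP 2 (all but Cxcr2) and 0 on every other array. Their summed linear level was 16367 on CDP 2 against 49.3 to 50.1 on the other CDP arrays and 65.2 to 69.8 on the CMP arrays. Differences of the 5 tested members without CDP 2 are given beside each. Gate genes followed the sort in part. Of 7 tested, 1 rose in CDP (Itgax), 1 fell (Kit) and 5 did not pass. Itgax (CD11c), which only the CMP gate names, as absent, was at 6.38 to 7.78 in CDP and 2.26 on both CMP arrays. Csf1r (CD115) was detected in both populations, but was higher in CDP (12.94 to 13.16) than in CMP (11.03 to 11.75), without passing. Flt3, positive in both gates, was at 10.76 to 11.02 in CDP and 9.88 to 10.06 in CMP. Fcgr2b encodes an Fc receptor that both gates excluded, yet it was at 9.25 to 10.25 in CDP and 8.72 to 9.01 in CMP. Fcgr3, another such gene, lay near the detection level in both.

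Among the ligand and receptors, Angpt1 was strongly lower in CDP than in CMP, and neither receptor was detected in either. On its brighter probe set Angpt1 was at 5.33, 4.17 and 5.77 on the CDP arrays, against 10.04 and 9.37 on the CMP arrays. All 3 CDP arrays lay near or below the detection level and both CMP arrays far above it, with a gap of 3.60 between the nearest arrays of the groups. The group values were 5.09 ± 0.83 in CDP (mean ± SD, n = 3) and 9.70 ± 0.47 in CMP (n = 2), a difference of -4.61 ± 0.55 (SE, limma adjusted p = 0.0244). With values below log2 5 set to 5, Angpt1 was at least 20.2-fold lower in CDP. In sorted populations, fewer cells that express a gene and less of its RNA per cell cannot be told apart.

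The direction of Angpt1 was the same within both kinds of array, at -4.71 for CDP 1 against CMP 1 and -4.40 for the arrays with more 5′ beta-actin signal. With the 5′ beta-actin signal as a block the difference was -4.53 (adjusted p = 0.00645), and with the 5′ Gapdh signal as a block -4.79 (adjusted p = 0.0116). Leaving out any 1 array ended the call but not the difference: the adjusted p became 0.0718, 0.110 or 0.120 when CDP 1, 2 or 3 was removed and 0.151 or 0.126 when CMP 1 or 2 was, with bounds from 16.03-fold to 25.5-fold. The difference without CDP 2 was -4.15. Angpt1 has a second probe set, at 2.31, 2.31 and 2.29 in CDP and 3.89 and 2.90 in CMP, below detection on every array, so the call rests on 1 of 2 probe sets.

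Tek was at 2.29, 2.26 and 2.29 on the CDP arrays and 2.64 on both CMP arrays, and Tie1 at 2.35, 2.26 and 2.26 in CDP and 2.35 on both CMP arrays. Both receptors were thus at or close to the table's lowest value everywhere, on the only probe set that each has here. Transcript of the ligand was therefore detected in CMP where the 1 probe set of each receptor was not. An undetected probe set does not show that a transcript is absent, since the second Angpt1 probe set was also undetected in CMP. Of 17 further genes of angiopoietin and Tie signalling with a probe set, 9 were tested and 0 passed in limma (2 at an unadjusted p under 0.05), and the median difference was -0.11, against 0.17 over all tested genes. Angpt2, the context-dependent second ligand, did not exceed 2.75 on any array, and Ptprb, the phosphatase that acts on Tie2, did not exceed 2.55. Downstream components shared with many other receptors were detected, such as Pik3r1, a regulatory subunit of PI3-kinase, at 10.55, 10.20 and 10.37 in CDP and 12.41 and 11.50 in CMP (-1.58 ± 0.39, adjusted p = 0.128). Foxo1, a transcription factor restrained by Akt, was at 6.59, 6.86 and 6.64 in CDP and 6.07 and 5.24 in CMP (1.04 ± 0.37, adjusted p = 0.254). For both genes the groups did not overlap, in opposite directions, and neither difference passed. Non-overlapping groups occurred in 32.2% of all tested probe sets, so that separation alone is common in this table.

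**Figure D2:**
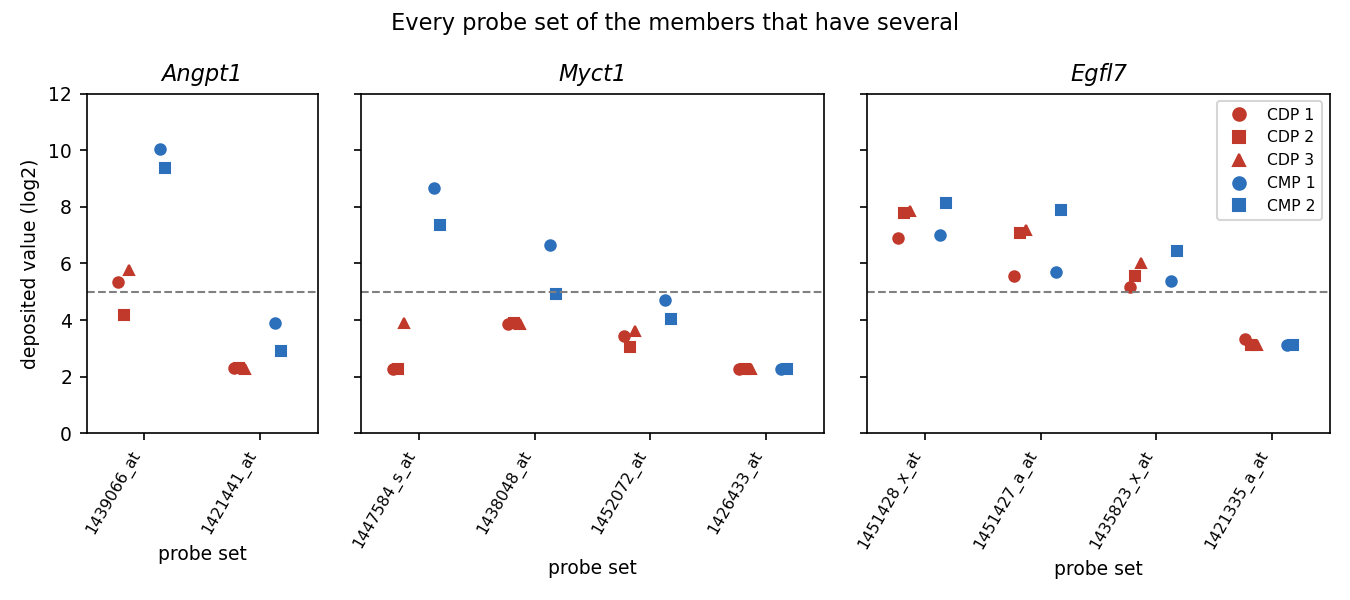
Deposited log2 value of every probe set of Angpt1, Myct1 and Egfl7 on each array, CDP in red at the left and CMP in blue at the right of each probe set, with a dashed line at log2 5. Angpt1 and Myct1 have 1 called probe set each, and the remaining probe sets of both stay below log2 5 apart from 1 Myct1 probe set on CMP 1 (6.64).

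Myct1 was detected in CMP and not in CDP. On its brightest probe set it was at 2.26, 2.26 and 3.89 on the CDP arrays, against 8.66 and 7.34 on the CMP arrays. No CDP array reached the detection level and both CMP arrays did, with a gap of 3.45 between the nearest arrays of the groups. The group values were 2.80 ± 0.94 in CDP (SD, n = 3) and 8.0001 ± 0.93 in CMP (n = 2), a difference of -5.20 ± 0.67 (SE, limma adjusted p = 0.0309). This probe set passed the filter through its CMP arrays alone, and its CDP spread is that of undetected values. As a bound, Myct1 was at least 8.0005-fold lower in CDP. Removing CMP 1 gave a bound of 5.06-fold and removing CMP 2 one of 12.6-fold. Leaving out a CDP array cannot move the bound, since every CDP value was set to log2 5.

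Within the kinds of array the Myct1 difference was -6.40 for CDP 1 against CMP 1 and -4.27 for the arrays with more 5′ beta-actin signal, and with that signal as a block it was -5.18 (adjusted p = 0.00976). With the 5′ Gapdh signal as a block it was -5.37 (adjusted p = 0.0184). As for Angpt1, leaving out any 1 array ended the call, with an adjusted p of 0.0776, 0.159 and 0.104 when CDP 1, 2 or 3 was removed and of 0.156 and 0.112 when CMP 1 or 2 was. The difference was -4.93 without CDP 2. The second Myct1 probe set was at 3.87, 3.90 and 3.87 in CDP and 6.64 and 4.93 in CMP. Another was at 3.44, 3.07 and 3.60 in CDP and 4.71 and 4.05 in CMP, and the last sat at the lowest value on all arrays. The first 3 probe sets were thus lower on every CDP array than on either CMP array, an order found in 11% of all tested probe sets. The second reached log2 5 on CMP 1 alone and the third on no array, so their order is a description only. Only the brightest was tested, and its name ends in _s_at, which marks probe sets that may match several transcripts. Without such probe sets no Myct1 probe set passed the filter.

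Because Angpt1 is also known in megakaryocytes and stroma, and Myct1 in vessels, markers of those cells were read on the same arrays. Of 18 endothelial markers, 4 were detected (Eng, Erg, Icam2 and Pecam1, all of which blood progenitors can express), and 14 stayed below log2 5 on every array, among them the defining genes Cdh5, Kdr, Cldn5, Vwf and Plvap. The summed linear level of all 18 was 647 to 1460 in CDP and 1083 to 1259 in CMP, so the groups overlapped. Most of each sum came from the detected genes, so this overlap does not describe the 14 undetected markers. Of 9 stromal markers only Pdgfrb was detected, and Cxcl12, Lepr, Pdgfra, Col1a1, Col1a2, Col3a1, Dcn and Lum were below log2 5 throughout. The summed levels of all 9 were 505 to 1236 in CDP and 763 to 889 in CMP, and Pdgfrb made up most of each.

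Of the megakaryocyte markers only Pf4 passed, and most were not detected. Of 8 with a probe set, 3 were detected on at least 1 array, and their summed linear level was 151 to 177 in CDP against 255 to 350 in CMP. Pf4, platelet factor 4, was at 3.16, 3.48 and 3.89 in CDP and 5.77 and 5.72 in CMP, lower in CDP in all arrays and past the threshold (-2.23 ± 0.35, adjusted p = 0.0450). It passed the filter through the CMP arrays alone, and its bound is at least 1.68-fold lower in CDP. Itga2b, the platelet integrin chain also found on early progenitors, was at 4.59, 5.07 and 5.46 in CDP and 6.33 and 5.97 in CMP (-1.11 ± 0.38, adjusted p = 0.235). Itgb3, the brightest of these markers on every array and so the largest part of each sum, overlapped between the groups. The defining markers Ppbp, Gp1bb, Gp5, Gp6 and Gp9 were below log2 5 on every array. The part of such cells in the Angpt1 and Myct1 differences was not tested.

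Procr, which encodes the endothelial protein C receptor and marks stem cells, was detected on all arrays at levels that hardly varied within a group. It was at 5.24, 5.22 and 5.10 on the CDP arrays, against 6.44 and 6.50 on the CMP arrays. Each CDP array lay just above the detection level and at least 1.19 below the nearest CMP array. The difference was -1.28 ± 0.30 (SE), or 2.43-fold lower in CDP, with group values of 5.19 ± 0.08 (SD, n = 3) and 6.47 ± 0.05 (n = 2), and it missed the threshold (limma adjusted p = 0.111). It passed with the 5′ beta-actin signal as a block (-1.28, adjusted p = 0.0345) but not with the 5′ Gapdh signal (-1.27, adjusted p = 0.131), and was -1.19 and -1.34 within the 2 kinds of array by beta-actin. The difference without CDP 2 was -1.30. The fit adds a common variance drawn from all probe sets to the small spread of this one, and its only probe set ends in _s_at.

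The partners of Procr in the protein C pathway differed in both directions, and none passed. Thbd, which encodes thrombomodulin, the cofactor through which thrombin activates protein C, was at 7.87, 6.62 and 6.44 in CDP and 5.22 and 3.90 in CMP (2.42 ± 0.61, adjusted p = 0.133). Pros1, or protein S, a cofactor of activated protein C and a ligand of TAM receptors, was at 6.36, 5.17 and 5.36 in CDP and 3.55 and 3.61 in CMP (2.04 ± 0.44, adjusted p = 0.0966). It passed the filter through the CDP arrays alone, the CMP values being undetected, and its bound is at least 1.55-fold higher in CDP. Thbd and Pros1 were both higher on every CDP array than on any CMP array, as were 21.2% of all tested probe sets (11% were lower on every CDP array), and neither passed. F2r, the thrombin receptor PAR1, was at 9.35, 7.34 and 8.02 in CDP and 10.91 and 9.14 in CMP (-1.78 ± 0.76, adjusted p = 0.331), and its groups overlapped. Tfpi, the tissue factor pathway inhibitor, was at 8.71, 7.71 and 7.60 in CDP and 9.42 and 9.36 in CMP (-1.38 ± 0.43, adjusted p = 0.203). Of the 4 tested genes of this list 0 passed in limma (3 at an unadjusted p under 0.05), 2 were higher and 2 lower, and F3, F5, Proc and Serpina5 stayed below log2 5 on every array.

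**Figure D3:**
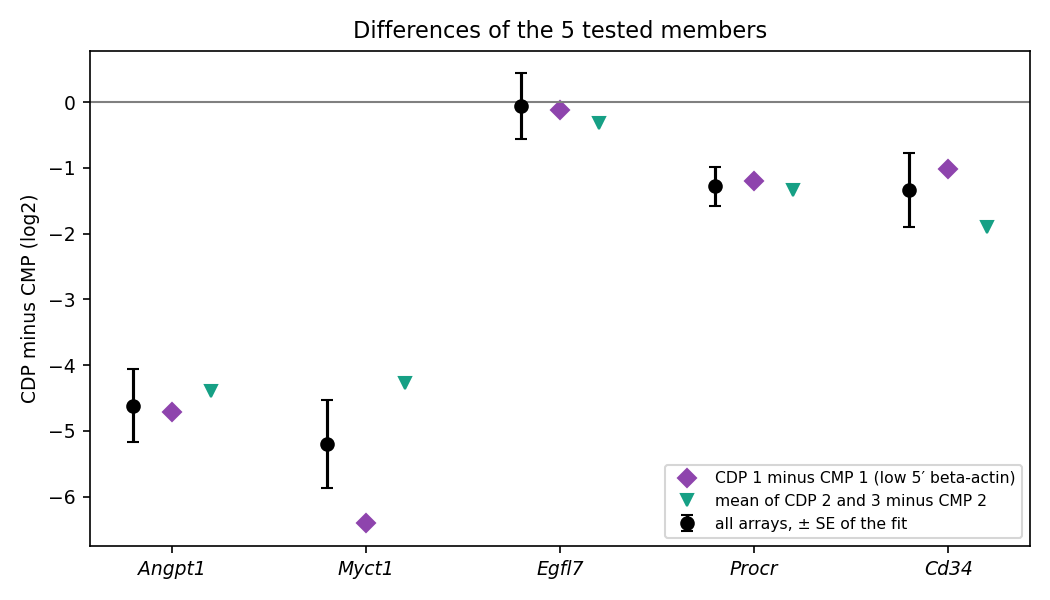
CDP minus CMP (log2) for the 5 tested genes: over all arrays with the standard error of the fit (circles), between CDP 1 and CMP 1, both with little 5′ beta-actin (diamonds) and between the other 3 arrays (triangles). Angpt1 and Myct1 lie below -4 in all 3 comparisons, Procr stays between -1.34 and -1.19, and Egfl7 lies near 0.

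Cd34, a sialomucin by which both populations were sorted as positive, was abundant on all arrays. It was at 10.20, 10.996 and 10.92 on the CDP arrays, against 11.22 and 12.86 on the CMP arrays. Every CDP array was below every CMP array, but by as little as 0.23, and the 2 CMP arrays differed from each other by more than the CDP arrays did. The group values were 10.71 ± 0.44 in CDP (SD, n = 3) and 12.04 ± 1.16 in CMP (n = 2), a difference of -1.33 ± 0.56 (SE, limma adjusted p = 0.327). It was -1.02 for CDP 1 against CMP 1 and -1.90 for the arrays with more 5′ beta-actin signal, and passed with that signal as a block (-1.52, adjusted p = 0.0350) but not with the 5′ Gapdh signal (-1.17, adjusted p = 0.248). The difference moved to -2.15 without CMP 1 and -0.52 without CMP 2, and was -1.48 without CDP 2. Its relatives Podxl and Podxl2 stayed below log2 5 on every array, with Podxl at no more than 2.61. Selplg, the selectin ligand PSGL-1, was at 12.26, 13.17 and 13.28 in CDP and 10.27 and 11.73 in CMP (1.91 ± 0.56, adjusted p = 0.1799), so this leukocyte mucin pointed the other way without passing, and 0 of 4 tested genes of the sialomucin list passed in limma (1 at an unadjusted p under 0.05).

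Egfl7, a secreted protein of vessels that modulates Notch signalling, was detected in both populations and did not separate them. On its brightest probe set it was at 6.88, 7.80 and 7.84 on the CDP arrays, against 7.002 and 8.14 on the CMP arrays. The groups overlapped: CDP 1 and CMP 1 were the low arrays and the other 3 the high ones. The difference was -0.06 ± 0.50 (SE, limma adjusted p = 0.971), with group values of 7.51 ± 0.54 (SD, n = 3) and 7.57 ± 0.80 (n = 2). A second probe set showed the same split more widely, at 5.55, 7.06 and 7.19 in CDP and 5.70 and 7.88 in CMP, and another was at 5.15, 5.57 and 6.01 in CDP and 5.37 and 6.45 in CMP. Their differences were -0.19 ± 0.80 and -0.33 ± 0.46, and the last probe set was below detection throughout.

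The arrays low for Egfl7 are those low in the 5′ beta-actin control, whereas CDP 3, also low in the 5′ Gapdh control, was not low for Egfl7. Within the kinds of array the differences of the brightest probe set were -0.12 and -0.32. The part of RNA quality in the Egfl7 levels was not tested. The sign of the difference over all arrays was not stable, at 0.25 without CDP 1, 0.51 without CMP 2 and 0.059 with the 5′ Gapdh signal as a block, and was -0.21 without CDP 2. Of the Notch genes that Egfl7 is known to touch, Notch1, Notch2, Jag2 and Rbpj were tested and 0 of 4 passed in limma (1 at an unadjusted p under 0.05). Notch1 was at 11.50, 11.12 and 11.13 in CDP and 10.82 and 10.04 in CMP (0.82 ± 0.37, adjusted p = 0.360). Jag2, a Notch ligand, was at 5.36, 5.27 and 4.80 in CDP and 6.15 and 5.98 in CMP (-0.92 ± 0.33, adjusted p = 0.259). The vessel-type ligand and receptor Dll4 and Notch4 stayed below log2 5 on every array.

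**Figure D4:**
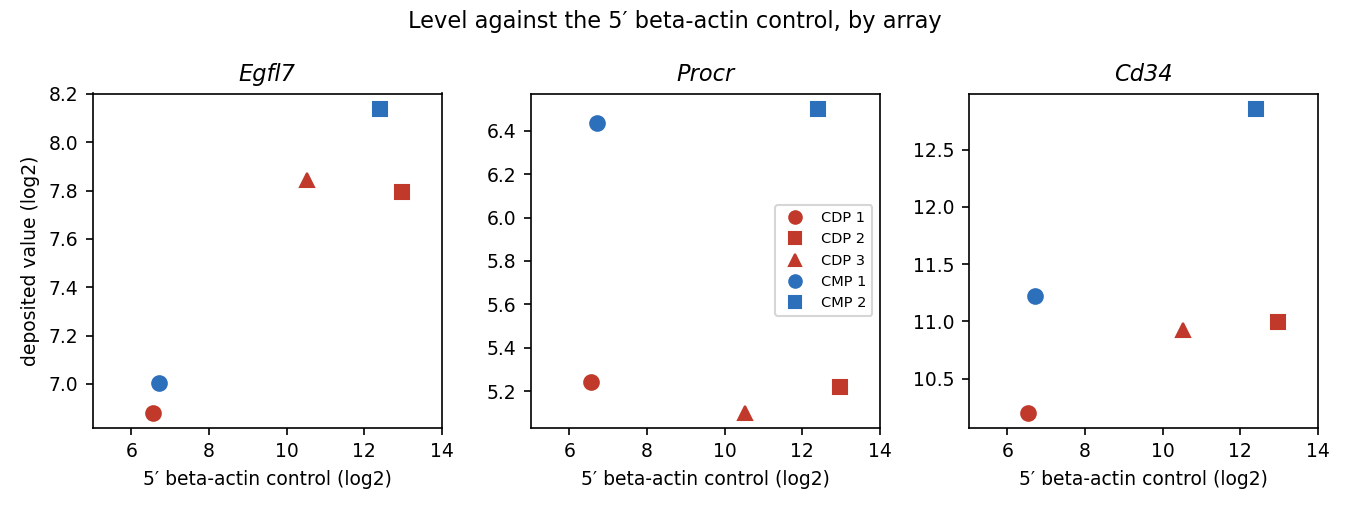
Deposited log2 value of Egfl7, Procr and Cd34 (brightest probe set, vertical axes that do not start at 0) against the 5′ beta-actin control on the same array, CDP in red and CMP in blue. Egfl7 is at 6.88 and 7.002 where that control is low and at 7.80 to 8.14 on the others, whereas Procr separates the populations at either level of the control.

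Esam, Emcn and Robo4 were not detected in either population. Esam, an immunoglobulin-type junction molecule used to mark stem cells, was at 2.26 on all 3 CDP arrays, against 2.49 and 2.27 on the CMP arrays. Emcn, or endomucin, a sialomucin of veins and stem cells, was at 2.33, 2.26 and 2.33 in CDP and 2.33 on both CMP arrays. Robo4 was at 2.57, 2.57 and 2.54 in CDP and 2.57 and 2.68 in CMP. These 3 genes have 1 probe set each, and values so close to the table's lowest have no order, so nothing can be said of a difference.

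The neighbours of these genes were read in the same way. Jam2 and Jam3, junction molecules related to Esam, did not exceed 2.41 and 2.29 on any array. Of 10 genes of the junction and adhesion list with a probe set, 4 were detected on at least 1 array. Icam2, an adhesion molecule of leukocytes and vessels, was at 8.26, 8.83 and 9.35 in CDP and 8.79 and 9.34 in CMP (-0.25 ± 0.43, adjusted p = 0.843). Pecam1, an adhesion molecule of vessels, platelets and leukocytes, was at 4.88, 6.03 and 5.38 in CDP and 3.55 and 5.93 in CMP (0.69 ± 0.75, adjusted p = 0.730). The groups overlapped for both, and 0 of these 2 tested genes passed in limma (0 at an unadjusted p under 0.05). Tjp1 and Cd99l2 reached log2 5 on CMP 1 alone. Of the ligands and receptors around Robo4, Slit1, Slit2, Slit3, Robo1, Robo2, Robo3 and Unc5b stayed below log2 5 on every array. Srgap3, a GTPase-activating protein that acts below Robo receptors and elsewhere, was at 6.05, 6.47 and 6.14 in CDP and 3.94 and 4.27 in CMP. It rose in CDP (2.11 ± 0.33, limma adjusted p = 0.0439), the 1 of 2 tested genes of its list to do so. It passed the filter through the CDP arrays alone, the CMP values being undetected, and its bound is at least 2.33-fold higher in CDP.

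Other stem cell genes were mostly lower in CDP, and most did not pass. Of 24 genes of the stem cell list with a probe set, 11 were tested. In limma 3 fell in CDP, 0 rose and 8 did not pass (8 of the 11 were at an unadjusted p under 0.05). Of the 11 differences 10 were negative, with a median of -1.47 against 0.17 over all tested genes. Of all 8449 tested genes, 40 fell, 141 rose, 1448 were at an unadjusted p under 0.05 and 3328 had a negative difference. The list counts are a description only. They include Kit, whose surface level defined the gates, and Vldlr and Hlf, which passed the filter through the CMP arrays alone. Vldlr, a lipoprotein receptor, was at 2.59, 2.41 and 2.80 in CDP and 6.34 and 6.13 in CMP (-3.64 ± 0.31, adjusted p = 0.0132). Vldlr has 6 probe sets, and the name of the one given ends in _x_at. It passed the filter through the CMP arrays alone, its CDP spread is that of undetected values, and its bound is at least 2.36-fold lower in CDP. Gata2, a factor required by stem cells, was at 5.55, 5.31 and 5.31 in CDP and 8.60 and 7.71 in CMP (-2.77 ± 0.38, adjusted p = 0.0349). Vldlr and Gata2 fell in CDP with no overlap, as did Kit, by which the populations were sorted. Meis1, a partner of Hox factors, was at 8.41, 8.24 and 8.78 in CDP and 9.91 and 9.98 in CMP (-1.47 ± 0.33, adjusted p = 0.103), and Hlf at 4.17, 4.17 and 4.08 in CDP and 6.29 and 5.42 in CMP (-1.72 ± 0.37, adjusted p = 0.0961). The CDP values of Hlf are undetected, and its bound is at least 1.81-fold lower in CDP. Slamf1, Mecom, Prdm16, Fgd5 and Hoxb5, which mark stem cells more narrowly, stayed below log2 5 on every array and were not tested. Mecom came near that level in CMP, at 2.48, 2.48 and 2.54 in CDP and 4.95 and 4.12 in CMP. So did Prdm16, at 2.38, 3.82 and 3.48 in CDP and 4.70 and 4.43 in CMP.

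Most transcription factors that stem cells and endothelium share did not pass. Of 14 tested, 1 fell (Gata2), 0 rose and 13 did not pass in limma, with a median difference of -0.53. Lmo2, the bridging protein of the Tal1 complex, was at 11.35, 11.36 and 11.69 in CDP and 12.31 and 12.78 in CMP (-1.08 ± 0.33, adjusted p = 0.197). Erg, an ETS factor of stem cells and vessels, was at 6.69, 8.56 and 8.95 in CDP and 8.71 and 8.66 in CMP (-0.62 ± 0.69, adjusted p = 0.738), with overlap between the groups. The vessel factors Sox7, Sox17, Sox18 and Etv2 stayed below log2 5 on every array.

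**Figure D5:**
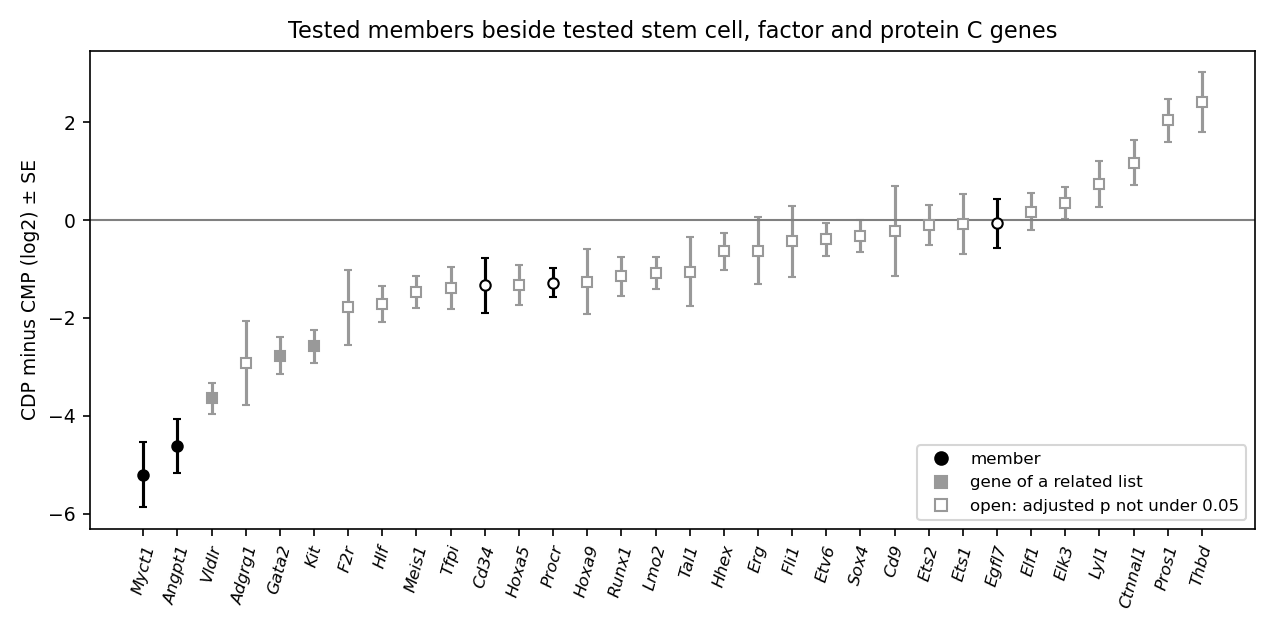
CDP minus CMP (log2) with the standard error of the fit for the 5 tested members (black circles) and the tested genes of the stem cell, transcription factor and protein C lists (grey squares), ordered by difference. Filled symbols passed the threshold, namely Myct1, Angpt1, Vldlr, Gata2 and Kit, all lower in CDP.

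Over all 8449 tested genes ordered by difference, Myct1 stood at rank 4 and Angpt1 at rank 8 from the lowest, while Cd34 stood at rank 252, Procr at 276 and Egfl7 at 3018. These ranks include values below detection and are a description only. The profiles of Angpt1 and Myct1 over the 5 arrays, each with its own mean removed, differed by a root mean square of 0.56 log2 units. Nearest to Angpt1 were P2ry14 (0.45), a receptor for UDP-glucose, Ctla2b (0.47), Dnajc6 (0.51), Dio2 (0.56) and Dach1 (0.57). Nearest to Myct1 were Tfr2 (0.15), a transferrin receptor, Ctla2b (0.41), Dach1 (0.46), Ctla2a (0.53) and Dio2 (0.70). These genes were picked for their likeness, so shared order is no result, and many of the CDP values compared are undetected. Tfr2, the nearest, was at 3.80, 3.75 and 5.29 in CDP and 10.47 and 9.04 in CMP. P2ry14 was at 2.80, 2.60 and 3.19 in CDP and 7.23 and 6.62 in CMP, with no CDP array at the detection level.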

How the data were processed

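Gene expression was measured on Affymetrix Mouse Genome arrays in CDP (3 arrays) and CMP (2 arrays). The values are log2 and were deposited as the authors made them with GCRMA, per the submitters' processing notes; GCRMA corrects background by probe sequence, normalizes quantiles and summarises the probes of a set, and its version and a genome build are not given in the sources used here. Names of probe sets came from the platform annotation (34945 of 45037 with 1 symbol), and 0 of the 10 member symbols changed against RefSeq. Groups and replicate numbers came from the titles, and 0 columns were left unmapped. CDP 3 has a title prefixed CM and every other array one prefixed BM; the remaining labels of CDP 3 give bone marrow and CDP. Whether the arrays shared 1 GCRMA run is not given in the sources used here.

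The values were not normalized again. Probe sets with at least 2 of 5 arrays at log2 5 or more were fitted with limma 3.58.1 (R 4.3.3, lmFit and eBayes, 2-sided, 3 residual and 3.14 prior degrees of freedom) over the whole table. A gene with several tested probe sets is given by that with the highest mean. Folds are lower bounds, with values below log2 5 set to 5, wherever the dimmer group held such values. The number of arrays limits the precision. The procedure was tested on simulated data. Alternatives were quantile and median scaling, other filters (none, log2 4, log2 7), array weights, a robust or trended variance, the replicate number or the 5′ beta-actin signal as a block (limit log2 8), the 5′ Gapdh signal as a block (limit log2 9, chosen after seeing the data), both arrays low in it left out, each array left out, a gene's mean and removal of probe sets ending in _x_at or _s_at. Named were all members, up to 3 called genes per list, set partners of members, and the 5 genes nearest Angpt1 and Myct1 in profile; other list genes and markers named were chosen after their values were seen. Members and lists were chosen with earlier results of these data known. List counts use 1 probe set per gene.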

Additional observations from a re-analysis of the deposited data

How the results depend on the processing

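Other filters and a trended or robust variance cannot change the difference at a given probe set. A gene's mean used tested probe sets only, so it repeated the main value for Angpt1 and Myct1. Differences of Angpt1 and Myct1 were negative under every alternative run, between -4.95 and -4.15 for Angpt1 and between -5.86 and -4.27 for Myct1. Over those alternatives the adjusted p ran from 0.00645 to 0.214 for Angpt1, past the threshold in 12 of 19, and from 0.0072 to 0.258 for Myct1, past it in 11 of 18. The count of 2 member genes became 4 with the 5′ beta-actin signal as a block (Procr and Cd34 added) and 1 without probe sets ending in _x_at or _s_at. It was 1 with no filter, where only Tek passed, on values below detection. It was 0 by limma without both arrays low in 5′ beta-actin signal (4 at an unadjusted p under 0.05) and 0 without each array in turn (3 or 4 unadjusted). Of all tested probe sets 287 passed, 70 of them lower in CDP, against 55 and 26 with no filter, 1438 and 414 with the 5′ beta-actin signal as a block, 350 and 91 with the 5′ Gapdh signal as a block (chosen after seeing the data, 2 member genes), and 0 and 0 without both arrays low in 5′ beta-actin (limma, 4768 and 1928 at an unadjusted p under 0.05). Leaving out 1 array gave 0 to 44 and 0 to 2 (44 and 2 without CDP 1, 0 without any other, with 1508 to 2835 unadjusted). The lower count was 45 with the filter at log2 7. Egfl7 changed sign with array weights (0.17), with the 5′ Gapdh block (0.059) and without CDP 1 (0.25) or CMP 2 (0.51), ran from -0.63 to 0.51 when 1 array was left out, and passed nowhere. The cause of these changes was not tested, except that fewer arrays or more undetected probe sets enter by construction. Where 1 CMP array was left, it was assumed to vary like the rest.

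Both groups hold a replicate 1 and a replicate 2. The labels do not say what the numbers stand for, and the arrays numbered 1 are also those low in 5′ beta-actin signal. Deviations from the group means correlated at 0.61 (CDP 1 with CMP 1) and 0.58 (CDP 2 with CMP 2). The deviations of the 2 CMP arrays mirror each other by construction. The crossed pairs therefore gave the same values with the sign turned, at -0.61 (CDP 1 with CMP 2) and -0.58 (CDP 2 with CMP 1). With the replicate number as a block, in which CDP 3 adds nothing to the difference, 608 probe sets passed, 176 of them lower, and 2 member genes, Angpt1 (-4.95) and Myct1 (-5.74), both at an adjusted p of 0.0072.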

Other observations

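Tek, the receptor of angiopoietin-1, was at 2.29, 2.26 and 2.29 on the CDP arrays and 2.64 on both CMP arrays, and with no filter it passed limma at -0.36 (adjusted p = 0.0338) although all 5 values lie far below the detection level of log2 5. Angpt1 and Myct1 (-4.61 and -5.20) did not pass in the same unfiltered fit (adjusted p = 0.214 and 0.258). Thbd and Procr, whose products act on protein C on the same cell surface in vessels, differed in opposite directions, at 2.42 and -1.28, without either passing.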
